A study of Mus musculus with 26 samples.

Results

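The enzymes and scaffolds that copy DNA were followed at the RNA level in 26 libraries of mouse glioma cells. The set holds 45 genes of DNA replication and S phase, chosen by name with earlier results of these data known. Each was found by its Entrez identifier among the 24454 genes of the deposited counts table. All 45 were among the 15617 genes with enough counts to test, and no library had fewer than 83 reads on any of them. The cells came from early gliomas driven by PDGF in mice without the tumour suppressor Trp53, and were sorted by flow cytometry for GFP, which a Cre-dependent reporter at the Rosa locus switches on. There were 5 groups. The 6 control libraries had intact Notch1, Notch2 and Rbpj, 6 libraries were labelled Notch1-/-, 5 were labelled Notch2-/-, 5 were labelled Notch1-/-Notch2-/- (the double mutant) and 4 were labelled Rbpj-/-. Trp53 was deleted in every group, controls included, so that no group has intact Trp53. Notch1 and Notch2 are receptors that signal between neighbouring cells, and their cleaved intracellular parts act on genes through the DNA-bound factor Rbpj. The sources used here name neither the promoter that drove Cre nor the age of the mice, and do not say whether each replicate was another animal. The p-values therefore rest on the spread among libraries, which may in part be technical. Xist and Y-linked reads, given below, show that the libraries of control, of Notch1-/-Notch2-/- and of Rbpj-/- did not each come from a single animal.

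Replication begins in G1, when the origin recognition complex, Cdc6 and Cdt1 load the ring-shaped Mcm2 to Mcm7 helicase onto DNA, a step called licensing. At the start of S phase Mcm10, Cdc45 and the GINS complex turn that helicase on, primase lays down short primers, and the leading and lagging strands are copied by separate polymerases held to DNA by the sliding clamp Pcna. Okazaki fragments are then joined, ribonucleotide reductase and thymidylate enzymes supply the nucleotides, and chromatin is rebuilt and remethylated behind the fork. Many of these genes are switched on by E2F transcription factors once cyclin and CDK activity has inactivated the retinoblastoma protein, so their messages are widely read as a sign of cycling cells.

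The E2F binding word was looked for in the promoters, because it is the best known sequence that these genes share. RefSeq promoter windows of GRCm38.p6, from 250 bases before to 50 bases after the annotated start, were found for 36 of the 45 genes. More than 1 window was listed for 5 of them, and a word in any window of a gene counted. The 8-base words TTTCCCGC, TTTGGCGC, TTTCGCGC and TTTGCCGC were searched on both strands, and neighbouring words can overlap. At least 1 of them stood in the window of 14 of the 36 genes (38.9%), against 4.39% of all tested genes with a window. They were Cdc6, Cdt1, Dnmt1, Gins3, Lig1, Mcm3, Mcm5, Mcm6, Mcm7, Orc1, Pola1, Pold1, Rfc3 and Uhrf1. A match is a description of these letters and shows neither binding nor a cause. Of 5 promoters, the stretch that holds the word is printed 5′ to 3′ on the strand of the gene, because they show the word on either strand, alone, repeated and as overlapping words that read on both strands. Capitals mark the E2F words and nothing else.
Cdc6: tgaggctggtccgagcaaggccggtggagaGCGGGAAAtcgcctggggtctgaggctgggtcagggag
Mcm5: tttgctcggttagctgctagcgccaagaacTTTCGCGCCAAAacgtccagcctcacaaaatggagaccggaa
Mcm6: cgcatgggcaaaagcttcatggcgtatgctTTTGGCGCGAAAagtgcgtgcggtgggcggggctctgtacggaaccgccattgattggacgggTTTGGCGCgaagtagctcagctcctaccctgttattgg
Pola1: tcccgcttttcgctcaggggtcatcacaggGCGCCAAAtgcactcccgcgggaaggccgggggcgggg
Uhrf1: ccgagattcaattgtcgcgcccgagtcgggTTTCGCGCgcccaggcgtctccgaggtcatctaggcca
In GRCm38.p6 these stretches lie at chr11:98907983-98908050 (Cdc6, plus strand), chr8:75109326-75109397 (Mcm5, plus), chr1:128359715-128359845 (Mcm6, minus), chrX:93632256-93632323 (Pola1, minus) and chr17:56304098-56304165 (Uhrf1, plus). They begin 168, 183, 140, 168 and 215 bases before the start site of their window, and none overlaps an annotated GENCODE exon. For Cdc6, Pola1 and Uhrf1 the gene as annotated begins farther upstream, so that the stretch is also intronic in a longer transcript. The words in Cdc6 and Pola1 lie on the strand opposite to the gene. In Mcm5 and at the first place in Mcm6, words on both strands overlap. The gene positions given with the values are RefSeq's on the same assembly, which is the build mm10 of the files, and all are protein-coding genes counted as a whole.

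The libraries held 30868828 to 48103535 counted reads, and no pair of libraries within a genotype held the same values or differed by as little as sampling noise. Oligodendrocyte precursor genes, the lineage markers of these gliomas, were abundant in every library (summed level of 18 genes 10963 to 24920 CPM, which is counts scaled to a common library total). Rbpj fell in the libraries labelled Rbpj-/- and Notch2 in those labelled Notch2-/- (adjusted p = 0.0222 and 0.0200, edgeR quasi-likelihood test). Their mean levels there were 0.617 and 0.580 times the control mean. Notch2 was not called lower in those labelled Notch1-/-Notch2-/- (adjusted p = 0.377), nor Notch1 in those or in Notch1-/- (0.270 and 0.204). By the same test Notch2 was higher in Notch1-/-Notch2-/- than in Notch2-/- (log2 fold change 0.61, adjusted p = 0.0115). Its levels were 9.43 to 12.9 CPM in Notch1-/-Notch2-/- and 6.14 to 8.58 CPM in Notch2-/-. Trp53 reads were present in every library. The labels do not give the deleted part, and whole-gene counts need not show it, so these genotype names mean the labels throughout.

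One library stood apart in the replication genes. In Notch1-/- replicate 2, 41 of the 45 genes were at their lowest of all 26 libraries and below every control library. Its level was a median of 0.316 times that of the other 5 Notch1-/- libraries (range over genes 0.187 to 0.729). The fit takes 1 estimate of spread per gene over all genotypes, so this library also enters the errors of comparisons it is not part of, and the count of replication genes called in each genotype is therefore given with and without it. At the other end, Notch1-/-Notch2-/- replicate 4 had the highest level of 32 genes and Rbpj-/- replicate 1 of 10. Control replicate 6 and Notch2-/- replicates 3 and 4 carried both Xist and Y-linked reads, and the main counts without these 3 libraries are given beside them.

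**Figure D1:**
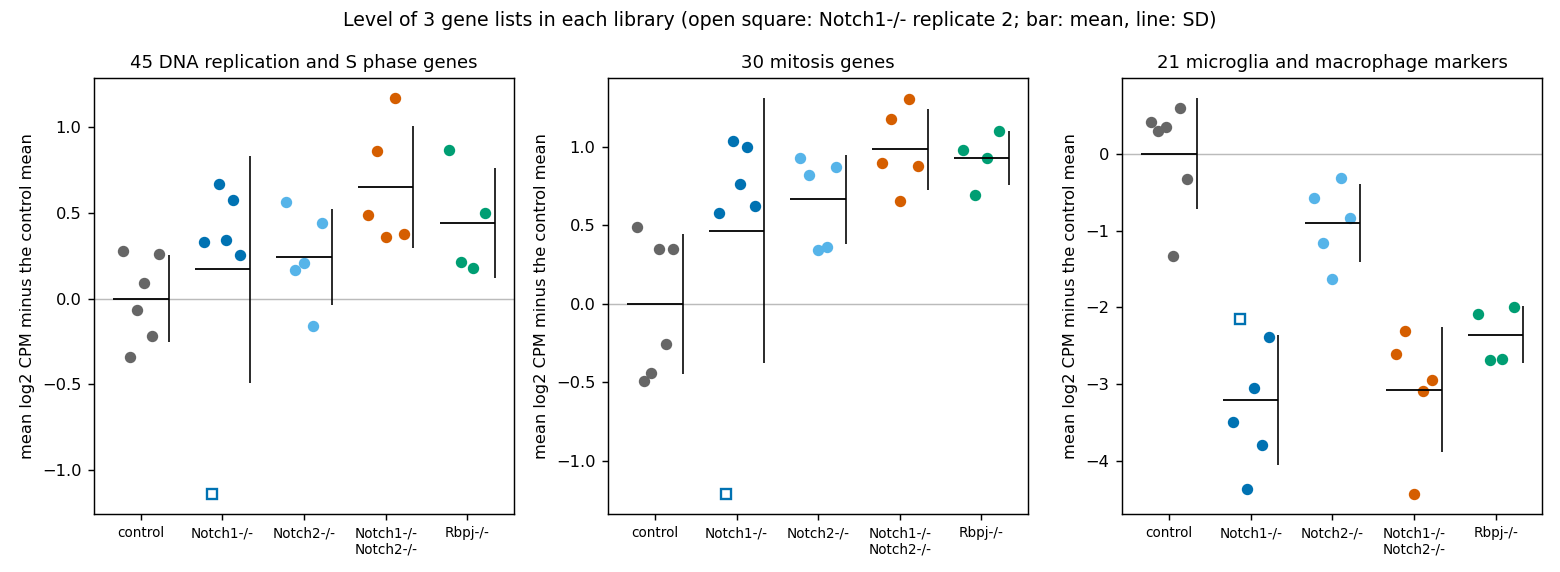
Mean level of 3 gene lists in each library (vertical axis, mean log2 CPM minus the control mean), by genotype; points are libraries, the open square is Notch1-/- replicate 2, bars are means and lines the SD. The lists are the 45 replication genes, 30 mitosis genes and 21 microglia and macrophage markers, and for the replication genes that library stands at -1.14 while the other Notch1-/- libraries lie between 0.25 and 0.67, and the Notch1-/-Notch2-/- libraries lie between 0.36 and 1.17.

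The first question was whether the replication genes as a group stood at another level in any genotype. The summed level of the 45 genes was lowest 2039, median 2567 and highest 3131 CPM in the controls. In the Notch1-/-Notch2-/- libraries it was lowest 3232, median 3477 and highest 5487 CPM, above every control. In the Rbpj-/- libraries it ran from 2957 to 4636 CPM (median 3286), and overlapped the controls. Notch2-/- (2302 to 3739 CPM, median 2988) and Notch1-/- (1250 to 4048 CPM, median 3243) also overlapped them. Averaged over genes on the log2 scale, so that each gene counts equally, the level above the control mean was 0.65 ± 0.35 (SD, n = 5) in Notch1-/-Notch2-/-, 0.44 ± 0.32 (n = 4) in Rbpj-/-, 0.24 ± 0.28 (n = 5) in Notch2-/- and 0.17 ± 0.66 (n = 6) in Notch1-/-, beside an SD of 0.25 (n = 6) among the controls. The Notch1-/-Notch2-/- libraries (0.36 to 1.17) lay above all controls (-0.34 to 0.28) on this scale too. In such bulk libraries, a change in the number of cells that express a gene and a change in its RNA per cell cannot be told apart.

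Gene by gene, 24 of the 45 rose in Notch1-/-Notch2-/- against control and none fell, by edgeR's quasi-likelihood test with p-values adjusted over all tested genes and a threshold of 0.05. Of all tested genes 37.1% were called in that comparison, 18.3% higher and 18.8% lower. As the set was chosen with earlier results known, its share beside that of all genes is no independent test. The median log2 fold change of the replication genes was 0.68, and that of all genes 0.01. In 18 genes the libraries did not overlap, all 5 lying above all 6 controls (11.6% of all genes did so). In Rbpj-/- against control 5 genes rose and none fell (15.2% of all genes called, 7.97% higher and 7.25% lower), with a median of 0.54 against 0.07 for all genes, and 5 did not overlap with control (2.79% of all genes). In Notch1-/- against control 3 rose and 1 fell (26.7% of all genes called, 13.2% higher and 13.5% lower), with a median of 0.26 against 0.03 and 0 without overlap (4.16% of all genes). In Notch2-/- against control edgeR called none (0.295% of all genes called, 0.128% higher and 0.166% lower), with 2 at an unadjusted p under 0.05, none called by DESeq2 and 3 by limma voom. Its median was 0.27 against 0.01 for all genes, and 0 genes were without overlap (0.826% of all genes). These comparisons share the same 6 controls.

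Without Notch1-/- replicate 2 the counts of genes that rose were 30 in Notch1-/-Notch2-/-, 16 in Rbpj-/- and 20 in Notch1-/-, with 1 lower there, and 0 in Notch2-/-. The shares of all genes called higher were then 20.2%, 10.1%, 15.8% and 0.462%. Leaving that library out of comparisons it is not part of was chosen after its values were seen. In Notch1-/- its omission raises these genes by construction, because it was singled out by their low levels. The smaller counts also rested on single libraries elsewhere: without Rbpj-/- replicate 1 none of the 5 genes passed in Rbpj-/-, and without Notch1-/-Notch2-/- replicate 4 the 24 became 13. Whether these losses exceed a loss of calls over all genes in the same fits was not tested. Rbpj-/- replicate 1 also stood apart in how its levels went with gene length and GC content. Relative to the control mean, its median log2 level was -0.46 in the longest class of genes minus the shortest, where the other Rbpj-/- libraries had 0.42 to 0.49, and 1.02 in the class of highest GC minus the lowest, where no other of the 26 libraries was above 0.48. The part of this in the Rbpj-/- calls was not tested. Without the 3 libraries that carried both Xist and Y-linked reads, 21 genes rose in Notch1-/-Notch2-/-, 2 in Rbpj-/-, 2 in Notch1-/- with 1 lower, and 0 in Notch2-/-. In the same fits 2501, 672, 1453 and 8 of all genes were called higher.

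Markers of several other cell types, but not of all, moved with the same genotypes. Of 21 microglia and macrophage genes, 20 fell in Notch1-/-Notch2-/-, 18 in Rbpj-/-, 21 in Notch1-/- and 0 in Notch2-/-. Their summed level was 56.5 to 186 CPM in Notch1-/-Notch2-/-, 149 to 261 in Rbpj-/-, 64.1 to 295 in Notch1-/-, 338 to 793 in Notch2-/- and 401 to 1662 in control, and no marker was at 0 in every library of a group. Of 16 mature oligodendrocyte genes, 14, 11, 12 and 0 fell in the same order of genotypes, of 20 astrocyte genes 13, 9, 12 and 0, and of 15 endothelial genes 12, 9, 12 and 0. One endothelial gene rose in Notch1-/-Notch2-/- and 1 astrocyte gene in Notch1-/-. Other lists are given as mean log2 level from the control mean, in the same order. Mural and fibroblast genes stood at -2.08, -1.33, -2.57 and -0.67, with an SD of 0.98 to 1.49 within these genotypes. T and NK cell genes stood at -0.58, -1.08, -0.09 and -1.66 (control SD 1.12), and mature neuron genes at -0.84, -0.31, -0.12 and 0.33. The T and NK cell values lie near the floor. The summed level of that list of 11 genes was 0.235 to 11.7 CPM over the libraries, and several of them had too few counts to test and are not in the mean. With the microglia level of each library as a covariate no replication gene was called in any comparison (smallest adjusted p 0.365 in Notch1-/-Notch2-/-, 0.505 in Rbpj-/- and 0.528 in Notch1-/- against control), and 258 of all genes, in place of 5794, were called in Notch1-/-Notch2-/-. The microglia levels of these 3 genotypes did not overlap those of the controls, so that genotype and microglia content cannot be told apart.

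**Figure D2:**
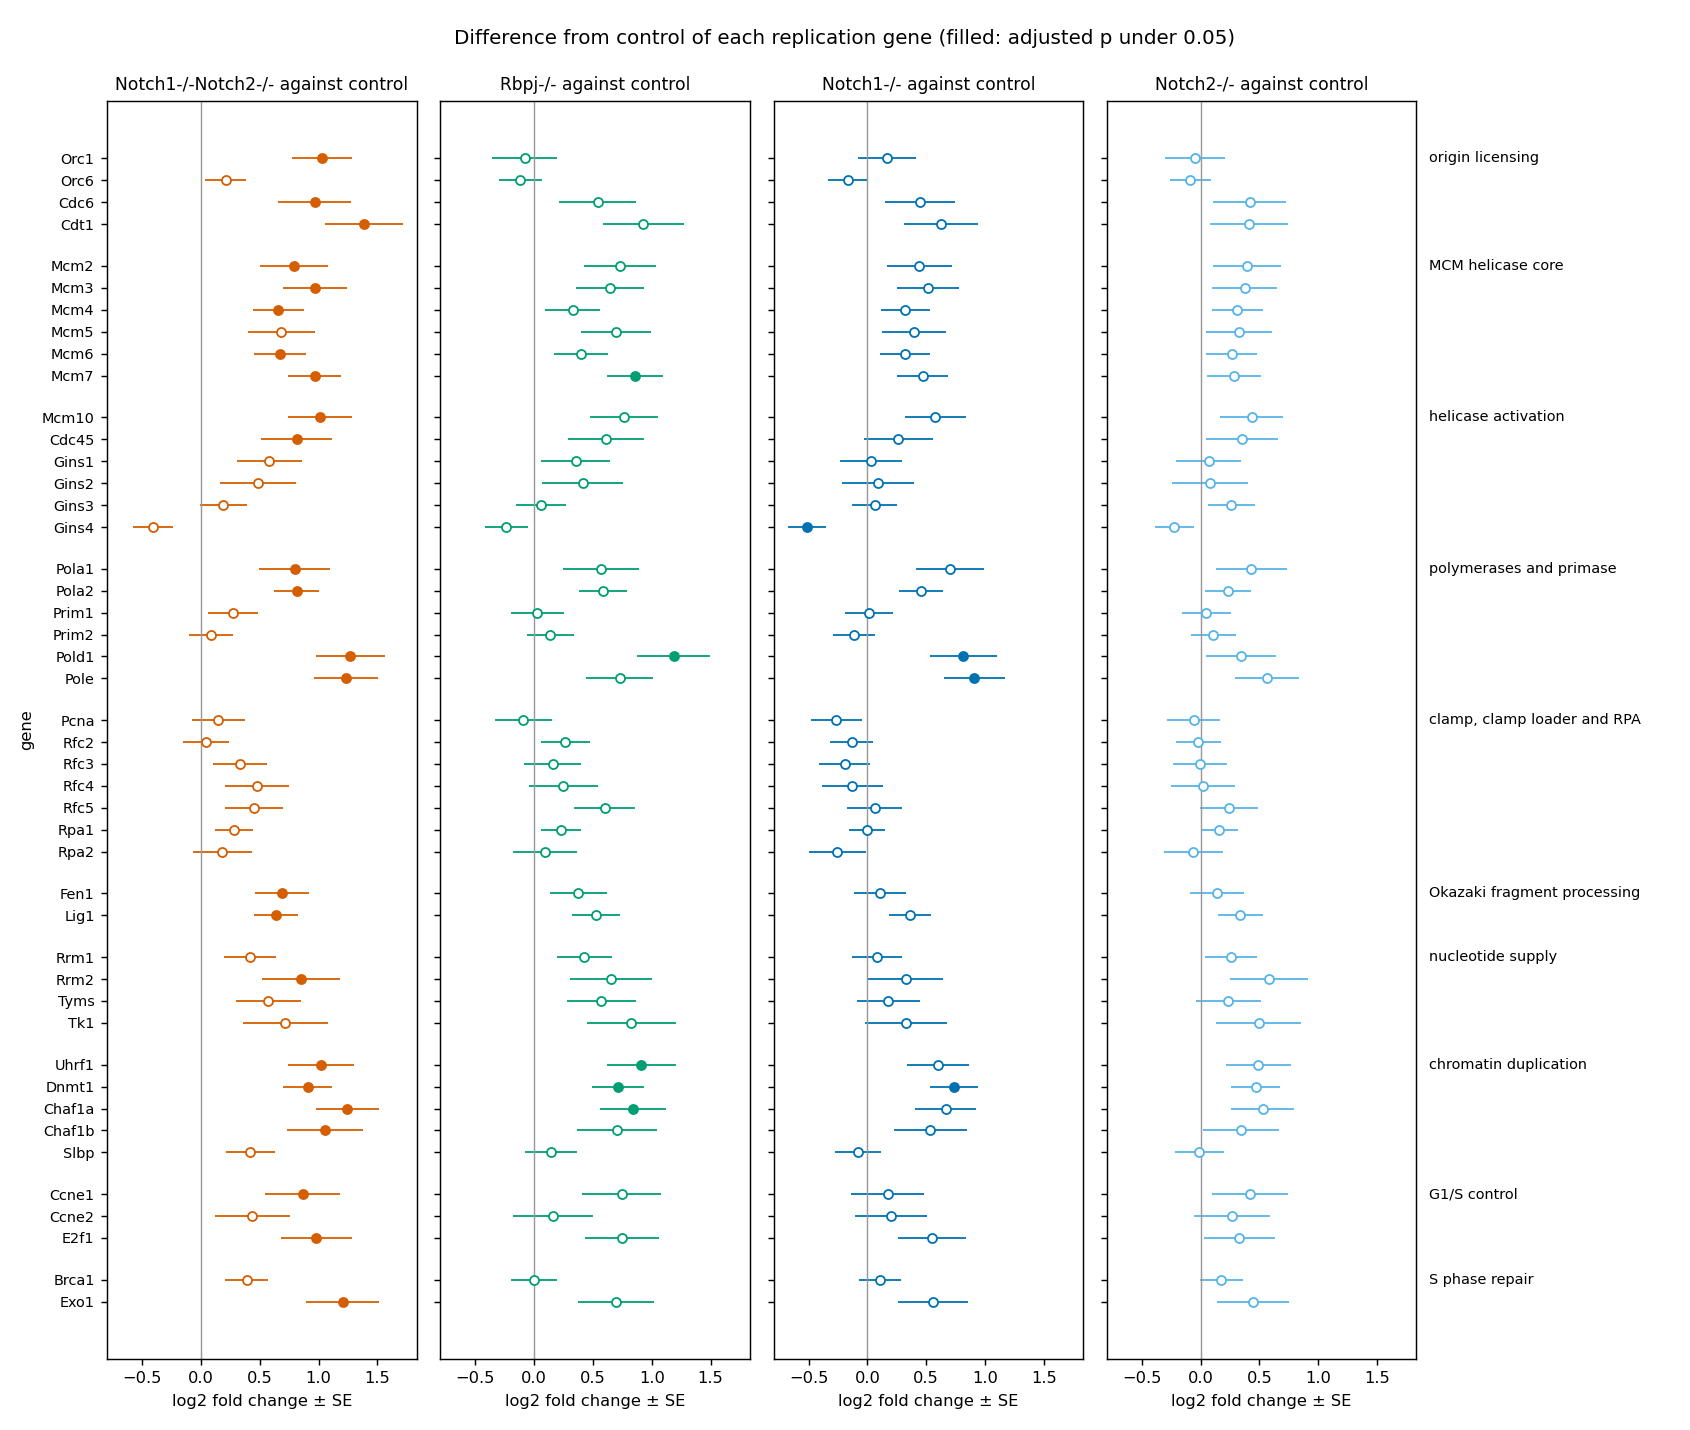
Log2 fold change of each of the 45 replication genes against control (horizontal axis, ± SE), 1 panel per genotype, with genes grouped by role; filled points had an adjusted p under 0.05. In Notch1-/-Notch2-/- 24 points are filled and all but Gins4 lie above 0, whereas none is filled in Notch2-/-.

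Among the 4 licensing genes, Orc1, Cdc6 and Cdt1 rose in Notch1-/-Notch2-/-, and edgeR called no licensing gene in Rbpj-/-, Notch1-/- or Notch2-/- (1, 0 and 0 at an unadjusted p under 0.05). Cdt1 (Entrez gene 67177, chromosome 8, 122568015 to 122573130), which escorts the helicase to origins, had a lowest, median and highest level of 9.65, 11.5 and 14.0 CPM in the 6 controls. It had 23.4, 36.9, 20.7, 52.3 and 18.6 CPM in Notch1-/-Notch2-/- replicates 1 to 5 and 36.5, 19.8, 11.6 and 20.6 CPM in Rbpj-/- replicates 1 to 4. All 5 double mutant libraries lay above every control, while 1 Rbpj-/- library lay within the control range. The log2 fold change was 1.38 ± 0.33 in Notch1-/-Notch2-/- (adjusted p = 0.00260) and 0.93 ± 0.35 in Rbpj-/- (adjusted p = 0.0690, or 0.0265 without Notch1-/- replicate 2). In the 6 Notch1-/- libraries the lowest, median and highest were 5.17, 17.1 and 30.044 CPM, and in Notch2-/- replicates 1 to 5 the levels were 21.5, 12.7, 14.9, 10.3 and 18.0 CPM. The Notch2-/- libraries overlapped the controls, while all Notch1-/- libraries but replicate 2 lay above them.

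Orc1 (Entrez gene 18392, chromosome 4, 108575705 to 108616030), the largest subunit of the origin recognition complex, stood higher in the double mutant than in every library of control, Rbpj-/- and Notch2-/-. It had 8.71, 10.8, 7.65, 17.0 and 8.15 CPM in Notch1-/-Notch2-/- replicates 1 to 5, against a lowest, median and highest of 3.50, 5.24 and 6.19 CPM in the controls. Its level was 4.85, 4.54, 4.71 and 5.29 CPM in Rbpj-/- replicates 1 to 4 and 6.01, 4.91, 3.16, 4.27 and 6.44 CPM in Notch2-/- replicates 1 to 5. The Rbpj-/- libraries lay inside the control range. Against control the log2 fold change was 1.03 ± 0.25 (adjusted p = 0.00343) and against Notch2-/- 1.08 ± 0.27 (adjusted p = 0.00899), and both calls held without each library. Against Rbpj-/- it was 1.11 ± 0.29 (adjusted p = 0.0730), the only replication gene without overlap there, and it was called when Notch1-/- replicate 2 was left out (adjusted p = 0.0191). Against Notch1-/-, whose lowest, median and highest were 2.27, 5.80 and 7.98 CPM, it was 0.86 ± 0.25 (adjusted p = 0.154), with overlapping libraries. Per kilobase of gene length Orc1 was the least abundant of the 45 genes in the controls, at 1.70 ± 0.333 CPM per kilobase (SD, n = 6).

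Cdc6, which works with Cdt1 to load the helicase, went from 24.0 ± 6.09 CPM (SD, n = 6) in control to 46.8 ± 18.8 CPM (n = 5) in Notch1-/-Notch2-/- (log2 fold change 0.97 ± 0.31, adjusted p = 0.0184). Orc6, the smallest subunit of the complex, was not called in any comparison and had 63.6 ± 12.8 CPM in control and 73.7 ± 15.6 CPM in Notch1-/-Notch2-/-.

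Of the 6 genes of the Mcm2 to Mcm7 helicase, 5 rose in Notch1-/-Notch2-/-, and the fitted values of all 6 were close to each other (log2 fold change 0.66 to 0.97). In Rbpj-/- 1 rose, with values of 0.33 to 0.86. Mcm7 (Entrez gene 17220, chromosome 5, 138164583 to 138172111) had a lowest, median and highest level of 72.3, 90.3 and 97.2 CPM in the controls, 143, 192, 130.1, 259 and 123 CPM in Notch1-/-Notch2-/- replicates 1 to 5 and 242, 118, 101 and 167 CPM in Rbpj-/- replicates 1 to 4. Every library of both mutants was above every control. Its log2 fold change was 0.97 ± 0.23 in Notch1-/-Notch2-/- (adjusted p = 0.00232) and 0.86 ± 0.24 in Rbpj-/- (adjusted p = 0.0206), the second call ending without Rbpj-/- replicate 1 or 4. Notch1-/- had a lowest, median and highest of 71.2, 121 and 156 CPM (0.47 ± 0.22, adjusted p = 0.104). Mcm7 was also higher in Notch1-/-Notch2-/- than in Notch2-/-, which had 133, 87.4, 112, 73.5 and 122 CPM in replicates 1 to 5 (0.68 ± 0.24, adjusted p = 0.0495), although Notch2-/- replicate 1 lay above Notch1-/-Notch2-/- replicates 3 and 5.

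Mcm3 rose from 71.8 ± 14.1 to 141 ± 45.2 CPM (0.97 ± 0.28, adjusted p = 0.00859), and its double mutant libraries, at 113, 171, 106, 205 and 107 CPM, were all above the highest control. Mcm4 and Mcm6 rose by 0.66 and 0.67 on the log2 scale, also without overlap. Mcm2 rose by 0.79, with overlap. Mcm5 was the subunit not called, at 0.68 ± 0.28 (adjusted p = 0.0614), and it had the word on both strands shown above. Without Notch1-/- replicate 2 all 6 passed in Notch1-/-Notch2-/- and all 6 in Notch1-/-, with log2 fold changes of 0.51 (Mcm4) to 0.72 (Mcm3) in the latter. In Rbpj-/- 4 of the 6 then passed, Mcm2, Mcm3, Mcm5 and Mcm7. Replicates of Rbpj-/- were uneven for this group, with Mcm5 at 274, 129, 103 and 133 CPM in replicates 1 to 4 and a highest control of 129 CPM, so that 1 library was inside the control range and 1 stood well above the others.

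**Figure D3:**
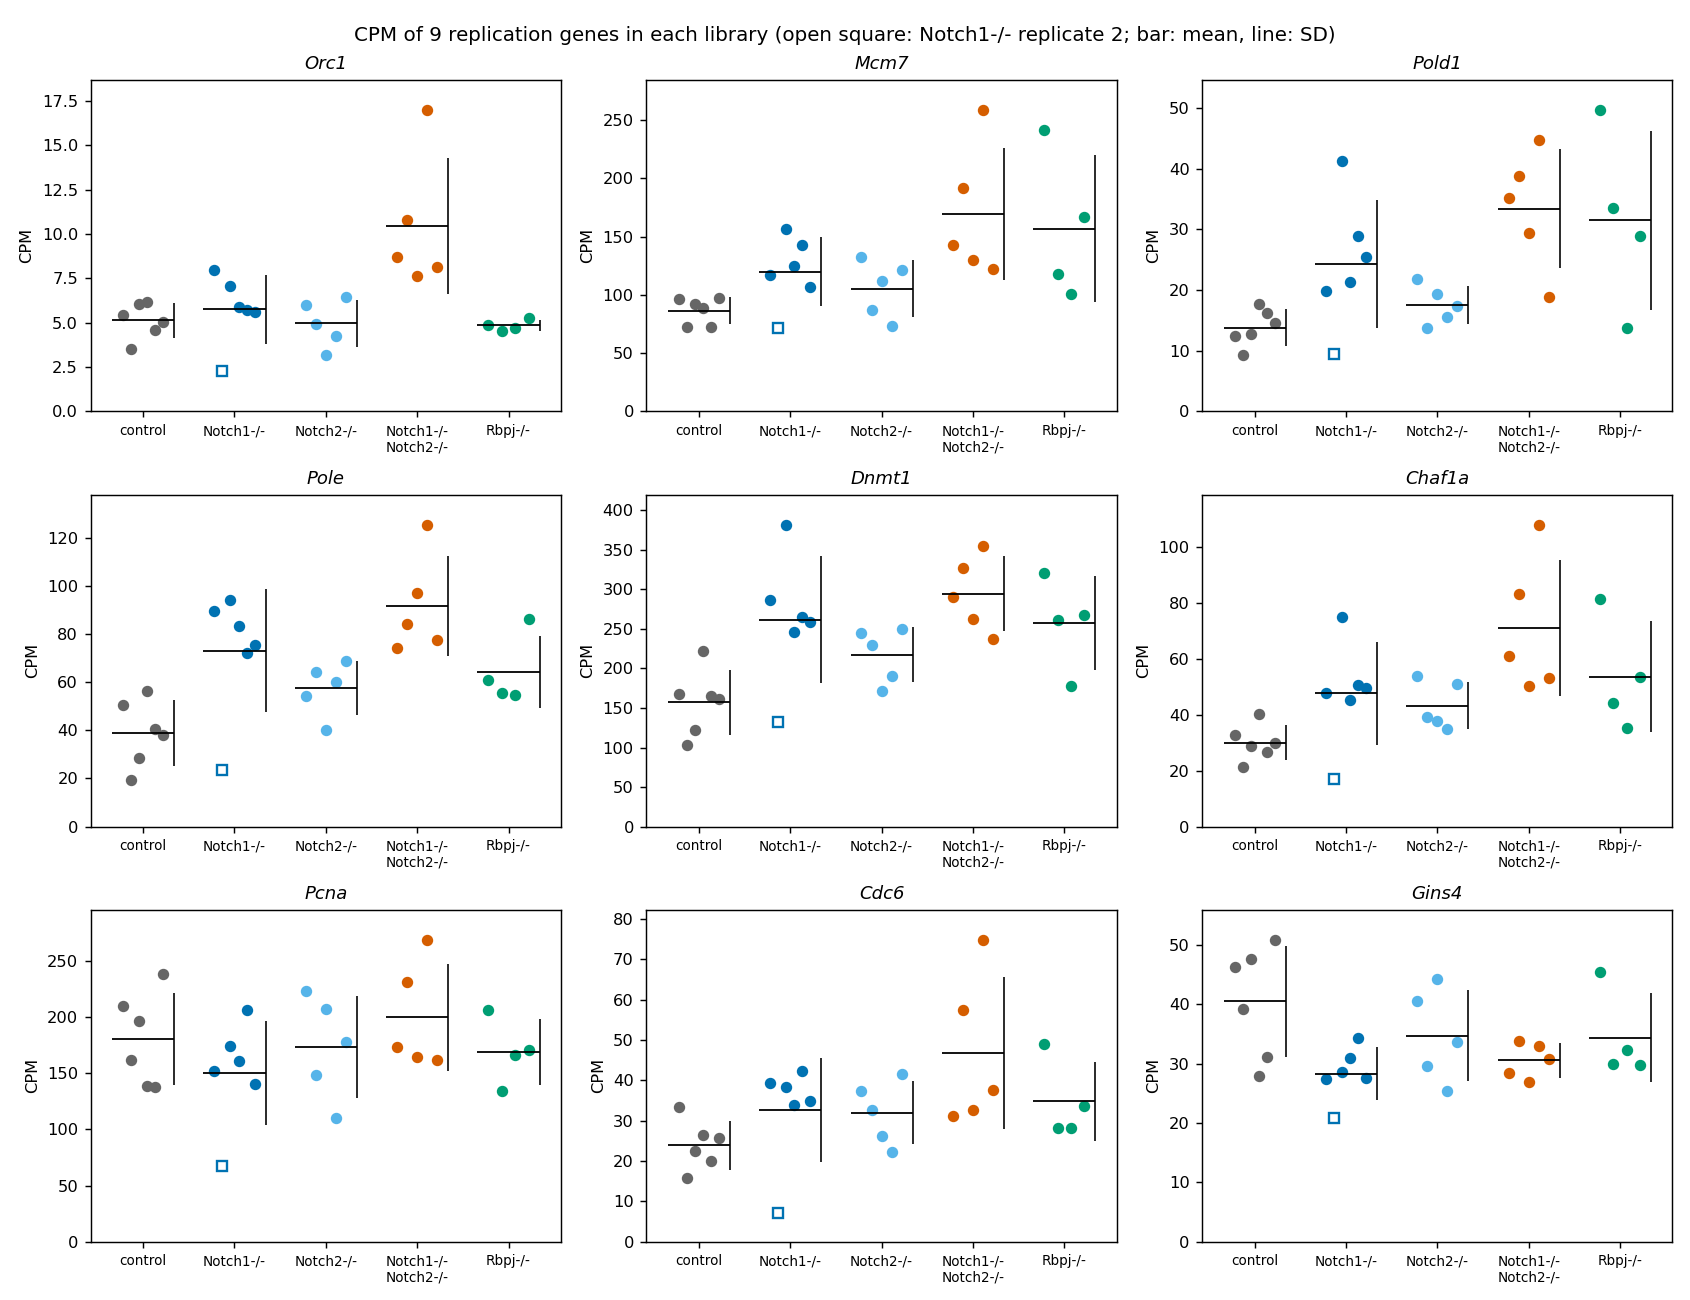
CPM of 9 replication genes in each library (vertical axis from 0), by genotype; points are libraries, the open square is Notch1-/- replicate 2, bars are means and lines the SD. All Notch1-/-Notch2-/- points for Orc1, Mcm7, Pold1, Pole, Dnmt1 and Chaf1a lie above the controls, those for Pcna overlap them, and those for Gins4 lie between 26.9 and 33.7 CPM.

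Helicase activation was split. Mcm10 and Cdc45 rose in Notch1-/-Notch2-/-, whereas none of the 4 GINS subunits did. Mcm10 (Entrez gene 70024, chromosome 2, 4990724 to 5012791), which helps to open the loaded helicase, had a lowest, median and highest of 16.8, 22.7 and 30.2 CPM in control. It had 36.7, 54.96, 33.4, 74.3 and 37.5 CPM in Notch1-/-Notch2-/- replicates 1 to 5 and 53.3, 34.001, 32.2 and 40.2 CPM in Rbpj-/- replicates 1 to 4. Both mutants lay above all controls, by 1.01 ± 0.27 (adjusted p = 0.00610) and 0.76 ± 0.29 (adjusted p = 0.0707, or 0.0161 without Notch1-/- replicate 2). Cdc45, which travels with the active helicase, rose from 31.2 ± 8.24 to 54.9 ± 16.3 CPM (0.81 ± 0.31, adjusted p = 0.0398), with overlap.

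The GINS subunits, which bind each other in equal number and join Cdc45 on the helicase, did not share a direction. Gins1, Gins2 and Gins3 had log2 fold changes of 0.58 ± 0.28, 0.48 ± 0.32 and 0.19 ± 0.20 in Notch1-/-Notch2-/-, and Gins4 had -0.41 ± 0.17 (adjusted p 0.102, 0.245, 0.476 and 0.0609). Gins4 (Entrez gene 109145, chromosome 8, 23226610 to 23237668) was the only replication gene that fell in any comparison. Its lowest, median and highest were 27.9, 42.7 and 50.8 CPM in control and 20.8, 28.1 and 34.4 CPM in Notch1-/-, and it had 28.4, 33.7, 26.9, 32.9 and 30.7 CPM in Notch1-/-Notch2-/- replicates 1 to 5. Every Notch1-/- library lay below the control median, with overlap. In Notch1-/- the log2 fold change was -0.52 ± 0.16 (adjusted p = 0.0218) and without replicate 2 -0.43 ± 0.16 (adjusted p = 0.0435). The Rbpj-/- libraries, replicates 1 to 4, were at 45.4, 29.989, 32.3 and 29.8 CPM (-0.24 ± 0.18, adjusted p = 0.384).

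Among the polymerase and primase genes, 4 of 6 rose in Notch1-/-Notch2-/-: Pold1, Pole, Pola1 and Pola2. The primase subunits Prim1 and Prim2 did not, at 0.27 ± 0.21 and 0.08 ± 0.19 (adjusted p = 0.319 and 0.748). Pole (Entrez gene 18973, chromosome 5, 110286319 to 110337468), the catalytic subunit of the leading strand polymerase, had a lowest, median and highest of 19.2, 39.4 and 56.4 CPM in control. Its levels were 74.4, 84.3, 97.0, 125 and 77.7 CPM in Notch1-/-Notch2-/- replicates 1 to 5 and 54.5, 64.3, 40.2, 60.2 and 69.0 CPM in Notch2-/- replicates 1 to 5. The double mutant libraries were above all libraries of both groups. The log2 fold change was 1.24 ± 0.27 against control (adjusted p = 0.00139) and 0.67 ± 0.28 against Notch2-/- (adjusted p = 0.105). In Notch1-/- Pole also rose, with a lowest, median and highest of 23.7, 79.5 and 94.2 CPM (0.91 ± 0.26, adjusted p = 0.0142), and 5 of 6 libraries were above every control. The Rbpj-/- libraries, replicates 1 to 4, were at 61.1, 55.3, 54.8 and 86.4 CPM (0.73 ± 0.29, adjusted p = 0.0831).

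Pold1 (Entrez gene 18971, chromosome 7, 44532744 to 44548815), the catalytic subunit of the lagging strand polymerase, was called in 4 of the 8 comparisons. Its lowest, median and highest were 9.25, 13.7 and 17.7 CPM in control and 9.55, 23.4 and 41.3 CPM in Notch1-/-. It had 35.2, 38.7, 29.4, 44.7 and 18.9 CPM in Notch1-/-Notch2-/- replicates 1 to 5 and 49.7, 33.6, 13.8 and 28.9 CPM in Rbpj-/- replicates 1 to 4. All double mutant libraries exceeded the controls, and Rbpj-/- replicate 3 lay among them. The log2 fold changes against control were 1.27 ± 0.30 in Notch1-/-Notch2-/-, 1.19 ± 0.31 in Rbpj-/- and 0.82 ± 0.28 in Notch1-/- (adjusted p = 0.00217, 0.0152 and 0.0362). The Rbpj-/- call ended without replicate 1 (adjusted p = 0.0759). Notch2-/- replicates 1 to 5 had 21.8, 13.7, 19.3, 15.5 and 17.4 CPM, and the double mutant exceeded them by 0.93 ± 0.31 (adjusted p = 0.0413).

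The 2 subunits of polymerase alpha, which extends the primers, rose to 81.8 ± 11.8 CPM (Pola1) and 47.0 ± 11.8 CPM (Pola2) in Notch1-/-Notch2-/- from 47.1 ± 18.5 and 26.7 ± 3.80 CPM in control. Pola2 did so without overlap (0.81 ± 0.19, adjusted p = 0.00247) and was also higher than in Notch2-/- (0.58 ± 0.20, adjusted p = 0.0485). Pola1, on the X chromosome, varied more, from 22.0 to 72.1 CPM among the controls (0.80 ± 0.30, adjusted p = 0.0431).

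None of the 7 genes of the clamp, its loader and the single-strand binding protein was called by edgeR in any comparison. In Notch1-/-Notch2-/- against control 0 of them passed at an unadjusted p under 0.05, DESeq2 called 0 and limma voom 1. The log2 fold changes there were all positive, from 0.04 to 0.48, with a median of 0.28. Pcna (Entrez gene 18538, chromosome 2, 132249286 to 132253180), the clamp itself and the most abundant of the 45 genes per kilobase in control (143 ± 32.6 CPM per kilobase, SD, n = 6), had a lowest, median and highest of 137, 179 and 239 CPM in control. It had 173, 232, 165, 269 and 162 CPM in Notch1-/-Notch2-/- replicates 1 to 5 and 206, 134, 167 and 170.5 CPM in Rbpj-/- replicates 1 to 4. The groups overlapped widely (0.15 ± 0.23 and -0.09 ± 0.24, adjusted p = 0.634 and 0.819). Rfc5 (Entrez gene 72151, chromosome 5, 117379145 to 117389023), a subunit of the clamp loader, had the smallest adjusted p of these genes. Its lowest, median and highest in control were 23.6, 33.3 and 40.7 CPM, and it had 42.2, 50.5, 38.0, 56.6 and 36.2 CPM in Notch1-/-Notch2-/- replicates 1 to 5 and 75.0, 36.1, 33.7 and 53.4 CPM in Rbpj-/- replicates 1 to 4. These gave 0.45 ± 0.25 (adjusted p = 0.150) and 0.60 ± 0.26 (adjusted p = 0.113, or 0.0464 without Notch1-/- replicate 2). The loader subunits Rfc2, Rfc3 and Rfc4 and the single-strand binding subunits Rpa1 and Rpa2 lay between 0.04 (Rfc2) and 0.48 (Rfc4) on the log2 scale.

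Both genes of Okazaki fragment processing rose in Notch1-/-Notch2-/-. Lig1 (Entrez gene 16881, chromosome 7, 13277175 to 13311426), the ligase that joins the fragments, had a lowest, median and highest of 58.2, 73.8 and 86.5 CPM in control, 118, 120.0, 105, 133 and 94.2 CPM in Notch1-/-Notch2-/- replicates 1 to 5 and 131, 96.5, 89.0 and 104 CPM in Rbpj-/- replicates 1 to 4. Both mutants were above every control. The log2 fold change was 0.64 ± 0.19 in Notch1-/-Notch2-/- (adjusted p = 0.0110) and 0.53 ± 0.20 in Rbpj-/- (adjusted p = 0.0746, or 0.0105 without Notch1-/- replicate 2). Fen1, the nuclease that trims the fragments, rose from 39.3 ± 5.09 to 63.4 ± 18.1 CPM without overlap (0.69 ± 0.23, adjusted p = 0.0221).

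Of the 4 genes of nucleotide supply, Rrm2, the small subunit of ribonucleotide reductase, rose in Notch1-/-Notch2-/-. Rrm2 (Entrez gene 20135, chromosome 12, 24708254 to 24714146) had a lowest, median and highest of 92.6, 133 and 189 CPM in control and 178, 300.1, 165, 410.0 and 192 CPM in Notch1-/-Notch2-/- replicates 1 to 5. The lowest double mutant libraries lay inside the control range, and the call was near the threshold (0.85 ± 0.33, adjusted p = 0.0474). Rrm1, the large subunit, had 235 ± 60.9 CPM in control and 314 ± 62.6 CPM in Notch1-/-Notch2-/- (0.42 ± 0.22, adjusted p = 0.141). In Rbpj-/- the thymidine kinase Tk1 had the smallest adjusted p of the group, with 54.1, 27.8, 17.0 and 23.9 CPM in replicates 1 to 4 against a lowest, median and highest of 11.8, 17.4 and 24.9 CPM (0.83 ± 0.38, adjusted p = 0.137), and replicates 3 and 4 lay inside the control range. Tyms, which makes thymidylate, stood at 0.57 ± 0.28 in Notch1-/-Notch2-/- and 0.57 ± 0.29 in Rbpj-/-, neither called.

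Of 5 genes that rebuild and methylate chromatin behind the fork, 4 rose in Notch1-/-Notch2-/-, 3 in Rbpj-/- and 1 in Notch1-/-. Without Notch1-/- replicate 2 these counts were 5, 3 and 4. Dnmt1 (Entrez gene 13433, chromosome 9, 20907206 to 20959888), the maintenance DNA methyltransferase, had a lowest, median and highest of 103, 163 and 222 CPM in control and 132, 262 and 381 CPM in Notch1-/-. It had 290.3, 327, 263, 354 and 237 CPM in Notch1-/-Notch2-/- replicates 1 to 5 and 321, 262, 178 and 268 CPM in Rbpj-/- replicates 1 to 4. All double mutant libraries lay above the controls, as did 5 of the 6 Notch1-/- libraries and 3 of the 4 Rbpj-/- libraries. The log2 fold changes were 0.91 ± 0.21, 0.71 ± 0.22 and 0.74 ± 0.20 (adjusted p = 0.00206 in Notch1-/-Notch2-/-, 0.0328 in Rbpj-/- and 0.0108 in Notch1-/-). In Notch2-/- replicates 1 to 5 Dnmt1 had 244, 229.9, 171, 190.5 and 249.96 CPM (0.47 ± 0.21, adjusted p = 0.309), the smallest adjusted p of the 45 genes in that comparison.

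Chaf1a (Entrez gene 27221, chromosome 17, 56040416 to 56068026), the large subunit of the chromatin assembly factor that deposits new histones, had the smallest adjusted p of all 45 genes in Notch1-/-Notch2-/- against control. Its lowest, median and highest were 21.3, 29.5 and 40.2 CPM in control, and it had 60.9, 83.4, 50.2, 108 and 53.1 CPM in Notch1-/-Notch2-/- replicates 1 to 5 and 81.5, 44.1, 35.4 and 53.7 CPM in Rbpj-/- replicates 1 to 4. No double mutant library overlapped the controls, and 1 Rbpj-/- library did. The log2 fold change was 1.24 ± 0.27 (adjusted p = 0.00124) in Notch1-/-Notch2-/- and 0.84 ± 0.28 (adjusted p = 0.0466) in Rbpj-/-, the latter ending in 8 of 11 fits that each left out 1 library. Uhrf1, which recruits Dnmt1 to hemimethylated DNA, rose in both, by 1.02 and 0.91, without overlap in either. The partner subunit Chaf1b rose in Notch1-/-Notch2-/- (1.05 ± 0.32, adjusted p = 0.0138). The histone message binding protein Slbp did not pass (0.42 ± 0.21, adjusted p = 0.116) and in Notch1-/- was the 1 gene of the group with a negative value (-0.08 ± 0.20, adjusted p = 0.789).

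Of the G1/S regulators, E2f1 and Ccne1 rose in Notch1-/-Notch2-/- and Ccne2 did not. E2f1 (Entrez gene 13555, chromosome 2, 154559400 to 154569892), a transcription factor that activates replication genes, had a lowest, median and highest of 7.61, 9.84 and 12.4 CPM in control. It had 18.4, 23.7, 15.0, 28.6 and 12.6 CPM in Notch1-/-Notch2-/- replicates 1 to 5 and 27.2, 14.8, 10.2 and 14.9 CPM in Rbpj-/- replicates 1 to 4. The double mutant libraries were all above the highest control, by a margin of under 1 CPM for the lowest of them (0.98 ± 0.30, adjusted p = 0.0137), and Rbpj-/- overlapped (0.75 ± 0.32, adjusted p = 0.107). Ccne1 and Ccne2 encode the E cyclins that start S phase. Ccne1 rose from 14.1 ± 2.39 to 25.7 ± 10.0 CPM (0.86 ± 0.32, adjusted p = 0.0374), and Ccne2 had 30.4 ± 9.92 and 41.2 ± 13.7 CPM (0.44 ± 0.32, adjusted p = 0.290).

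Exo1 (Entrez gene 26909, chromosome 1, 175880768 to 175911396), a nuclease of mismatch repair and end resection, rose in Notch1-/-Notch2-/-. Its lowest, median and highest in control were 6.87, 16.5 and 20.3 CPM, and it had 25.4, 40.5, 24.0, 54.0 and 29.5 CPM in Notch1-/-Notch2-/- replicates 1 to 5 and 24.8, 20.5, 22.5 and 29.7 CPM in Rbpj-/- replicates 1 to 4. Both mutants lay above every control, at 1.20 ± 0.31 (adjusted p = 0.00425) and 0.70 ± 0.33 (adjusted p = 0.144, or 0.0666 without Notch1-/- replicate 2). Brca1, which protects and repairs stalled forks, was not called in any comparison (0.39 ± 0.18 in Notch1-/-Notch2-/-, adjusted p = 0.0954, and 0.00 ± 0.20 in Rbpj-/-, adjusted p = 0.997).

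Of the 24 genes that rose in Notch1-/-Notch2-/-, 13 were called in all 12 fits that each left out 1 library: Orc1, Cdt1, Mcm3, Mcm7, Mcm10, Pola2, Pold1, Pole, Lig1, Uhrf1, Dnmt1, Chaf1a and Exo1. Without Notch1-/-Notch2-/- replicate 4 the other 11 were all lost. That library alone ended the calls of Cdc6, Mcm6, Chaf1b and E2f1 (adjusted p without it 0.0817, 0.0737, 0.0653 and 0.0534). The call of Fen1 also ended without replicate 2 of that genotype, and those of Mcm4, Cdc45, Ccne1, Mcm2, Rrm2 and Pola1 without any 1 of 3, 5, 5, 6, 6 and 8 libraries. None of the 5 calls in Rbpj-/- held in all 11 such fits. In Notch1-/- Pole and Dnmt1 were called in all 12, Gins4 was lost without control replicate 3 or 6, and Pold1 was lost in 7.

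The Notch1-/- libraries changed most with the library that stood apart. As it was singled out by low levels of these same genes, leaving it out raises their values by construction. With all 6 libraries Pole, Dnmt1 and Pold1 rose and Gins4 fell. Without replicate 2 the median log2 fold change of the 45 genes went from 0.26 to 0.49, and the genes called higher also included Cdc6, Cdt1, Mcm2 to Mcm7, Mcm10, Pola1, Pola2, Lig1, Uhrf1, Chaf1a, Chaf1b, E2f1 and Exo1. Mcm10, for example, had a lowest, median and highest of 10.6, 37.6 and 49.0 CPM in the 6 libraries, the lowest being replicate 2 and the next 37.0 CPM, above the highest control. Its log2 fold change was 0.58 ± 0.26 with replicate 2 (adjusted p = 0.0963) and 0.79 ± 0.20 without it (adjusted p = 0.00595). Rfc2, Rfc3, Rpa2, Orc6 and Pcna had values below 0 with and without it, none of them called. That library was also the lowest of its genotype for other lists (mitosis genes -1.21 and other replication genes -0.63 from the control mean, log2 scale). It had the highest microglia level of its genotype, at -2.15, followed by replicate 6 at -2.39. Its mature oligodendrocyte level was -0.16, where the others lay between -3.19 and -1.75. Its T and NK cell level was 2.25, and the highest of the others 1.21, for a list near the floor. Not all lists of other cell types were high in it. Its endothelial level was -3.27, where the others lay between -3.35 and -1.21. Its mural and fibroblast level was -3.63, where the others lay between -3.71 and 0.33. Its oligodendrocyte precursor level was 0.37, and the highest of the others 0.31. The part of these in its low replication level was not tested.

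**Figure D4:**
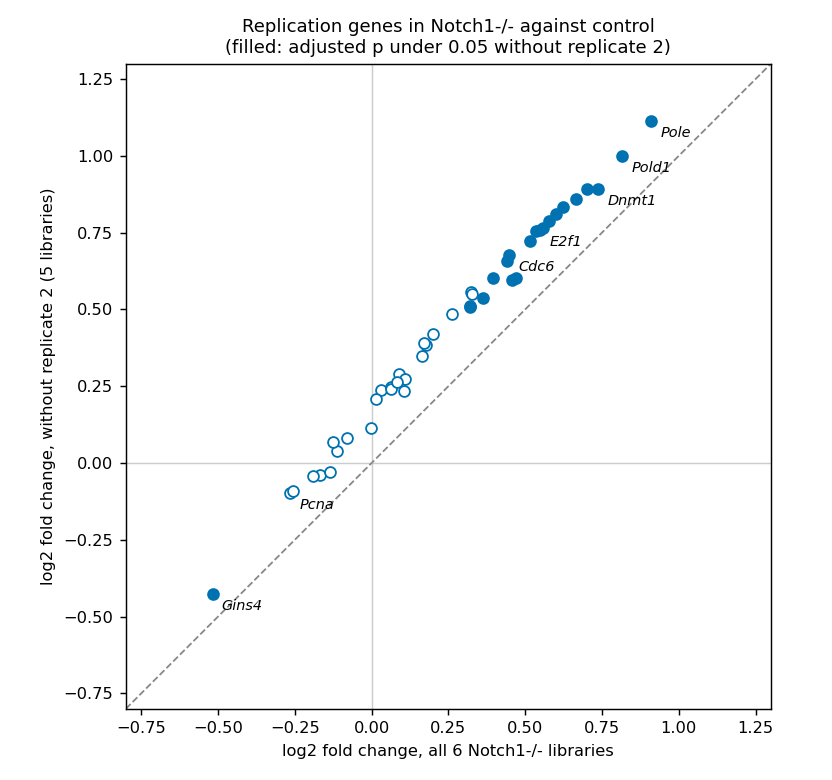
Log2 fold change of the 45 replication genes in Notch1-/- against control with all 6 Notch1-/- libraries (horizontal axis) and without replicate 2 (vertical axis); filled points had an adjusted p under 0.05 without it. Every gene lies above the diagonal, which was fixed in advance, as replicate 2 had less of each gene than the other Notch1-/- libraries (at most 0.729 times their median). With all libraries 4 genes are called, against 21 without replicate 2.

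Comparisons between mutants asked whether the difference from control itself differed. In Notch1-/-Notch2-/- against Notch2-/- 4 genes rose, Orc1, Mcm7, Pola2 and Pold1 (17.4% of all genes called, 7.09% higher and 10.3% lower), and the median was 0.40 against 0.01 for all genes. Orc1 and Pole were the 2 without overlap (6.81% of all genes). Without Notch1-/- replicate 2 there were 12 (9.34% of all genes higher), and Orc1 alone was called in every fit that left out 1 library. Notch1-/-Notch2-/- against Rbpj-/- gave no call with edgeR (0.794% of all genes called, 0.359% higher and 0.435% lower), with 1 gene without overlap (2.49% of all genes), 1 gene at an unadjusted p under 0.05 and 1 called by DESeq2. Notch1-/-Notch2-/- against Notch1-/- gave none with edgeR (0.640% of all genes called, 0.333% higher and 0.307% lower), with 0 without overlap (0.800% of all genes), 11 at an unadjusted p under 0.05 and 1 called by DESeq2. All 45 values were positive there, with a median of 0.40, which became 0.24 without Notch1-/- replicate 2. Notch1-/- against Notch2-/- gave none with edgeR, DESeq2 or voom (3.09% of all genes called, 0.839% higher and 2.25% lower), 0 without overlap (1.35% of all genes) and none at an unadjusted p under 0.05, with 22 of 45 values positive. A gene called in Notch1-/-Notch2-/- and not in Rbpj-/- or Notch1-/- is therefore not shown to differ between these genotypes by edgeR over all libraries. Without Notch1-/- replicate 2, Orc1 was called in Notch1-/-Notch2-/- against Rbpj-/-. For a side-by-side view, the 5 genes called in Rbpj-/- had log2 fold changes of 1.19 (Pold1), 0.91 (Uhrf1), 0.86 (Mcm7), 0.84 (Chaf1a) and 0.71 (Dnmt1) there, and 1.27, 1.02, 0.97, 1.24 and 0.91 in Notch1-/-Notch2-/-, where the controls are the same.

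Other genes of the cell cycle are given for comparison. Of 45 further replication genes, a list that shares no gene with the set, 28 rose in Notch1-/-Notch2-/-, 6 in Rbpj-/-, 15 in Notch1-/- and 0 in Notch2-/-, and 1 fell, the origin subunit Orc5 in Notch1-/- (-0.28, adjusted p = 0.0329). Mtbp, a partner of the firing factor Ticrr, rose in Notch1-/-Notch2-/- from 18.7 ± 3.23 to 39.6 ± 11.3 CPM (1.08 ± 0.17, adjusted p = 6.79e-05), and the helicase Recql4, the Brca1 partner Bard1 and the nuclease Dna2 rose by 1.52, 1.37 and 1.32. In Rbpj-/- Chtf18, of an alternative clamp loader, rose by 1.26 (adjusted p = 0.0151), a call lost without replicate 1. The call of Orc5 was lost in 7 of 12 fits that each left out 1 library. Of 30 mitosis genes, 20, 9, 7 and 0 rose in the same order. Top2a, which untangles replicated DNA, rose from 315 ± 126 to 764 ± 188 CPM in Notch1-/-Notch2-/- (1.28, adjusted p = 0.00234), and was at 0.81 in Notch2-/- (adjusted p = 0.242). Of 31 G1 cyclins, CDK inhibitors and regulators of Rb and E2F, 14, 7, 6 and 0 rose, and Lin52, of the DREAM complex, fell in Notch1-/-Notch2-/- (-0.36, adjusted p = 0.0153) and Notch1-/- (-0.29, adjusted p = 0.0468, lost in 10 of 12 such fits). Myc, an oncogenic transcription factor upstream of many replication genes, rose from 31.1 ± 7.52 to 106 ± 29.3 CPM in Notch1-/-Notch2-/- (1.77 ± 0.22, adjusted p = 8.65e-06), and by 1.51 in Rbpj-/- and 1.29 in Notch1-/- (adjusted p = 0.000505 and 0.000291). The activator E2f2 rose by 1.56 in Notch1-/-Notch2-/- and 1.14 in Rbpj-/-, and the repressor E2f7 by 2.01 in Notch1-/-Notch2-/- and 1.24 in Notch1-/-. Without Notch1-/- replicate 2, 30, 13, 22 and 1 further replication genes rose, 26, 26, 20 and 1 mitosis genes, and 15, 8, 15 and 0 G1 genes.

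The E2F word was next set beside the calls. Of the 21 genes with a promoter window that rose in Notch1-/-Notch2-/-, 11 had a word, and of the 15 with a window that were not called, 3 did (Gins3, Mcm5 and Rfc3). The 21 genes had 28 windows and the 15 had 15, so the genes that rose had more places for a match. By window the shares with a word were 39.3% and 20.0%. The clamp Pcna had no word in its window, and no match says only that these letters are not there. Among genes of the other lists, a word stood in 30.6% of the further replication genes and in 7.69% of the mitosis genes. The letters TTTGAA, the CHR element found in mitosis genes, stood in 80.8% of the mitosis genes, 13.9% of the replication genes and 14.7% of all tested genes. CCAAT stood in 63.9% of the replication genes, 80.8% of the mitosis genes and 42.7% of tested genes, and the GC box GGGCGG in 75.0%, 84.6% and 66.0%. A split by call was not particular to the E2F word. The GC box stood in 19 of the 21 genes that rose and 8 of the 15 not called (78.6% and 53.3% of windows). CCAAT stood in 12 of the 21 and 11 of the 15, and TTTGAA in 4 and 1. Whether any of these words goes with the calls was not tested.

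Gene length went with the calls. Tested genes were split into 3 equal classes by the length in the deposited table. In Notch1-/-Notch2-/- against control 10.3% of all genes rose in the shortest class (20 to 2179 bases), 18.9% in the middle class (2180 to 3837 bases) and 25.7% in the longest (3838 bases and more). Of the replication genes 3 of 17, 14 of 19 and 7 of 9 rose. The short ones that rose were Cdc45, Chaf1b and Ccne1, and 9 of the 11 clamp, loader, single-strand binding and GINS genes were in the shortest class. Rrm1 and Brca1 were long and not called. With an offset fitted to gene length in each library, an alternative chosen after seeing the data, 29 replication genes rose in Notch1-/-Notch2-/-, 3 in Rbpj-/- and 0 in Notch1-/-. Of the 24 genes called in Notch1-/-Notch2-/- without the offset, 22 were kept and 2 lost, so the 29 include genes not called before. In the same fits 2975, 1331 and 1395 of all genes were called higher. The trend of read counts with length in each library overlapped between genotypes (medians 0.04 in the controls, 0.57 in the libraries labelled Notch1-/-, 0.44 in Rbpj-/-, 0.39 in the double mutant and 0.49 in Notch2-/-, as the median log2 level of the longest class minus that of the shortest, each relative to the control mean). The part of length in the Notch1-/- and Rbpj-/- calls was not tested beyond this offset.

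**Figure D5:**
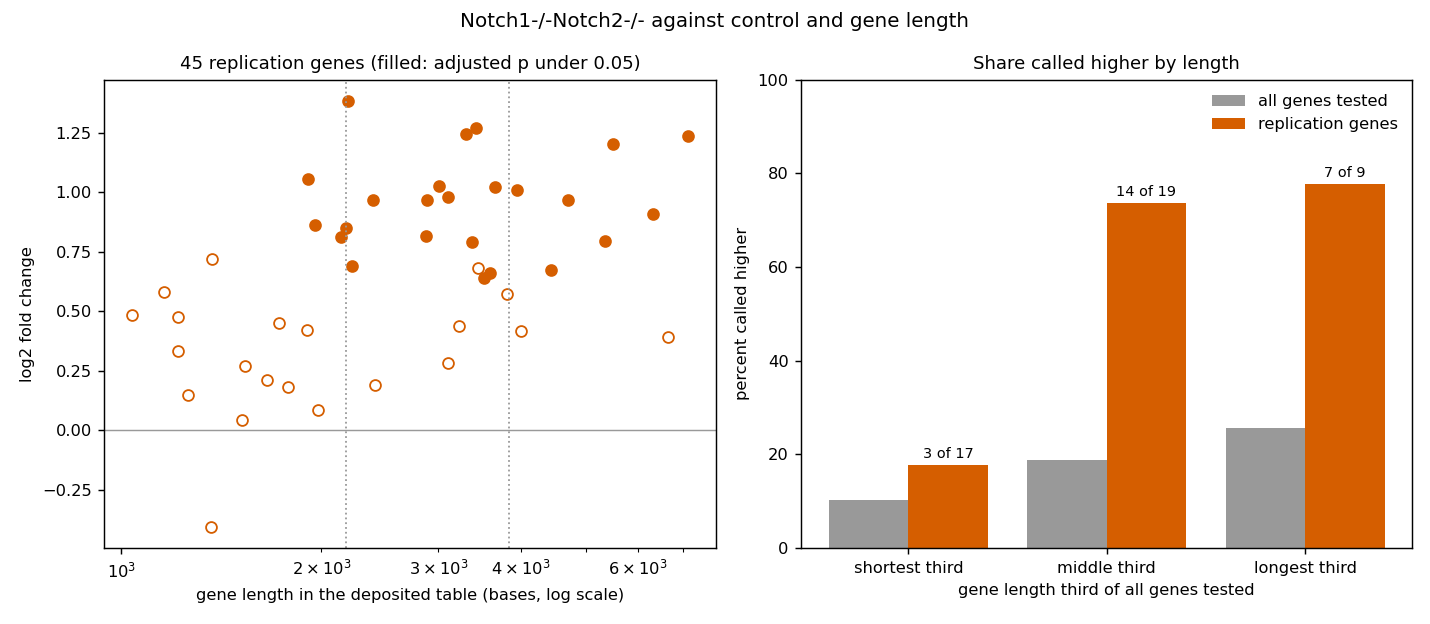
Left, log2 fold change of the 45 replication genes in Notch1-/-Notch2-/- against control (vertical axis) by gene length in bases (horizontal axis, log scale), filled where the adjusted p was under 0.05. Right, percent called higher (bars from 0) of all tested genes and of the replication genes in each of the 3 classes of gene length, where 3 of 17, 14 of 19 and 7 of 9 replication genes were called.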

How the data were processed

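RNA was sequenced from sorted tumour cells with a stranded kit, per the labels' protocols. The authors deposited 1 table of read counts per gene with gene lengths; STAR and mm10 are named in the submitters' processing notes. How reads were assigned to genes, with which annotation and whether by strand, is not given in the sources used here. Entrez identifiers were matched to RefSeq symbols for 24374 of 24454 genes (the other 80 hold 0.348% of counts). Counts were filtered with filterByExpr, scaled by TMM and fitted with edgeR 4.0.16 (quasi-likelihood, R 4.3.3) over all 26 libraries by genotype, with 8 contrasts, Benjamini-Hochberg adjustment over 15617 genes and a threshold of 0.05. CPM use TMM-scaled totals, log2 CPM a prior count of 2, and SE is the log2 fold change over the square root of F. The fit was tested on simulated counts.

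Full values are given, per role, for the gene with the smallest adjusted p in Notch1-/-Notch2-/- and in Rbpj-/- against control, for genes against their group's direction, the most and least abundant per length, and those called in Notch1-/-; from other lists, up to 4 genes per contrast. The members and lists were chosen with earlier results of these data known. Alternatives were DESeq2 1.42.0 (size factors, Wald test), limma 3.58.1 voom, other filters, a replicate block, a microglia covariate, left-out libraries and a gene length offset.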

Additional observations from a re-analysis of the deposited data

Results flagged for a closer look

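Libraries were compared with the others of their own genotype by Dixon's ratio, for each replication gene and for the gene-list levels, in 245 groups of libraries, and 18 values lay far from the rest. Chance flags about 1 in 20 such groups. Of the 18, 15 were low values of Notch1-/- replicate 2. Among the licensing and helicase genes of that library, Cdc6 was at 7.20 CPM where the other 5 lay at 33.997 to 42.3, Mcm6 at 76.1 (205 to 266), Mcm10 at 10.6 (37.0 to 49.0) and Gins3 at 4.98 (13.4 to 16.4). Among its polymerase genes Pola1 was at 27.7 CPM (83.8 to 88.5), Prim1 at 19.9 (56.007 to 70.5) and Pole at 23.7 (72.3 to 94.2). For nucleotide supply and histone messages Rrm1 was at 101.1 CPM (244 to 322), Tyms at 10.9 (38.4 to 47.1) and Slbp at 25.8 (53.2 to 64.9), and for repair Brca1 was at 36.1 (61.0 to 71.6) and Exo1 at 6.84 (22.4 to 28.8). Its mean level of the 45 genes was -1.14 from the control mean on the log2 scale, where the others lay between 0.25 and 0.67. The level of the further replication genes was -0.63 (0.37 to 0.60) and that of the mitosis genes -1.21 (0.58 to 1.04). All 3 remaining values were high ones of GINS genes. Gins2 was at 18.6 CPM in control replicate 6 (9.02 to 12.1 in the others), Gins3 at 18.3 in Notch1-/-Notch2-/- replicate 4 (12.55 to 13.6) and Gins4 at 45.4 in Rbpj-/- replicate 1 (29.8 to 32.3).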

How the results depend on the processing

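The count of replication genes called was within 1.5 times the main count, or 0 where that was 0, except as follows. In Rbpj-/- against control (5) it was 3 with a filter of at least 10 CPM in 4 libraries, 10 with limma voom, 0 with the microglia level as a covariate, 2 without the 3 mixed libraries, 3 with a gene length offset, 3 with only the compared libraries in the fit, and 17 without Notch1-/- replicate 2 and Notch1-/-Notch2-/- replicate 4 together. In Notch1-/-Notch2-/- against control (24) it was 0 with the microglia covariate. In Notch1-/- against control (4) it was 21 with voom, 0 with the microglia covariate, 0 with the length offset, 2 with only the compared libraries and 21 without both libraries. In Notch2-/- against control (0) it was 3 with voom, and DESeq2 gave 1 in Notch1-/-Notch2-/- against Rbpj-/- and 1 against Notch1-/-. In Notch1-/-Notch2-/- against Notch2-/- (4) it was 2 with no filter, 2 with the 10 CPM filter, 0 with the microglia covariate, 0 without the mixed libraries and 1 without both libraries. The microglia levels of Rbpj-/-, Notch1-/- and Notch1-/-Notch2-/- do not overlap those of the controls. The cause of the other differences was not tested. The counts with DESeq2, voom, the other filters, only the compared libraries and without both libraries were not set beside the calls over all genes. A change particular to the replication genes cannot be read from them.

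With the replicate number as a block the counts were 1 in Rbpj-/- against control and 1 in Notch1-/-Notch2-/- against Notch2-/-. The numbers did not pair the libraries: over 47 pairs with the same number the correlation of deviations ran from -0.42 to 0.63 (median -0.04), and 4 of 26 libraries correlated best with their own number. Leaving out 1 library at a time gave 0 to 16 in Rbpj-/- (0 without its replicate 1, 16 without Notch1-/- replicate 2), 13 to 30 in Notch1-/-Notch2-/- (13 without its replicate 4), 2 to 21 in Notch1-/- (2 without control replicate 3 or 6) and 0 to 0 in Notch2-/- against control. It gave 0 to 1 in Notch1-/-Notch2-/- against Rbpj-/-, 0 to 0 against Notch1-/- and 1 to 12 against Notch2-/-, and 0 to 0 in Notch1-/- against Notch2-/-. Apart from the fits without Notch1-/- replicate 2, these counts were not compared with the calls over all genes.

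Values that reversed did so in lists outside the 45 genes. Under the microglia covariate the log2 fold changes became -0.048 for Dscc1 and -0.017 for Rbl1 in Notch1-/-Notch2-/- against control, and -0.13 for Timeless, -0.12 for Chtf18, -0.070 for Fancd2, -0.0027 for Kif23, -0.017 for Hmmr and -0.13 for Ccnd1 in Notch1-/- against control. The microglia markers called in Notch1-/-Notch2-/- against Notch2-/- were 5 under that covariate, 3 of them higher. Oligodendrocyte precursor genes called became 1 lower in Rbpj-/- against control with only the compared libraries, and 1 higher in Notch1-/-Notch2-/- against Notch2-/- under each of the covariate, the compared libraries and the fit without both libraries. No replication gene had fewer than 83 reads in any library.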
